A study of Mus musculus with 6 samples.

Results

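The 39 genes described here encode the machinery of autophagy and mitophagy, and they were taken from the deposited table by symbol from a list chosen with earlier results of these data known. All 39 had a row among the 54385 rows of the table, and all 39 passed the filter on low counts that left 14332 genes for testing. RNA was sequenced from interscapular brown adipose tissue of C57BL/6N mice 20 weeks old on chow, with 3 libraries of wild type (WT, genotype wt/wt) and 3 of ADCY3∆AT (the knockout), which lacks the form of adenylyl cyclase 3 that the design text names Adcy3-AT. The labels do not give how the deletion was made or in which cells it acts, and they name no other allele or agent for either genotype. The design text has inguinal for the tissue, while each sample's own label has interscapular.

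Autophagy wraps parts of the cell in a membrane that closes and then fuses with the lysosome, where the contents are broken down. The kinases ULK1 and ULK2 and their partners start the process, a lipid kinase complex around BECN1 and ATG14 marks the growing membrane, and ATG9A and the ATG2 proteins bring lipid to it. Conjugation enzymes then attach the small proteins of the LC3 and GABARAP families (the ATG8 proteins) to the membrane, where receptors such as SQSTM1 or BNIP3 dock with their cargo. In thermogenic fat the same route removes mitochondria (mitophagy).

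Levels are CPM, counts brought to a common library total with TMM factors (trimmed mean of M-values), and log2 fold changes are knockout minus WT from the quasi-likelihood test of edgeR. Genes with an adjusted p under 0.05 (Benjamini-Hochberg, over all genes tested) are described as called. Library totals ran from 13758492 to 19592156 estimated counts, and the lowest count of a member in a library was 135. The Adcy3 row itself held 248, 209 and 166 CPM in WT and 167, 195 and 240 CPM in the knockout, while a second row whose identifier ends in the same digits (ENSMUSG66666620654) held 215, 197 and 118 CPM in WT and 1.27, 0 and 0 CPM in the knockout. Brown adipocyte markers had a high summed level in every library (12 markers, 17400 to 17800 CPM in WT and 15600 to 16400 CPM in the knockout, with 0 called by edgeR, 1 at an unadjusted p under 0.05 and 1 by DESeq2). Fabp4 (6550 to 9060 CPM) and Ucp1 (3680 to 5430 CPM) made up much of it, while Ppargc1a, Prdm16 and Ebf2 held 13.6 to 63 CPM. The marker at an unadjusted p under 0.05 was Ppargc1a (2.01-fold higher, edgeR adjusted p = 0.0609), and 9 of the 12 had a log2 fold change below 0. Skeletal muscle markers stood apart: edgeR called 8 of 13 tested lower, while DESeq2 called 12 lower and limma-voom 0, their summed level was 32.8, 123 and 755 CPM in WT and 7.97 to 10.8 CPM in the knockout, and of the 17 listed Pvalb and Cacna1s had no count in any knockout library. White adipocyte markers summed to 43.2 to 130 CPM in WT and 29.8 to 70.1 CPM in the knockout, with 1 of 5 tested (Lep) called lower by edgeR, a call kept in 2 of the 6 fits without 1 library, while DESeq2 called 1 lower and 1 higher and limma-voom 0. Each of these tools called 0 of the macrophage (10 tested), endothelial (8), fibroblast (8) and erythroid (5) markers. Among those, 2 endothelial markers were higher and 2 lower at an unadjusted p under 0.05. Of all tested genes, edgeR called 2.63% higher and 1.67% lower. An unadjusted p under 0.05 came with a higher level for 12.4% and with a lower one for 10.2%, and 48.9% had a log2 fold change above 0. With so few genes called, 0 calls in a short list do not show an equal content of those cells. Of the 5 white adipocyte markers tested, 2 had a log2 fold change above 0 and 3 below, and Nnat was 1.95-fold higher (edgeR adjusted p = 0.112). What share the differences in muscle RNA and in Lep have in the results below was not tested. In tissue RNA, fewer cells of a type and less RNA per cell cannot be told apart.

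Of the 39 genes, 5 rose in the knockout and 0 fell. Those that rose were Trp53inp1 (4.52-fold), Gabarapl1 (1.64-fold), Atg14 (1.55-fold), Atg2b (1.36-fold) and Atg12 (1.34-fold), and they belong to 5 of the 8 steps into which the genes were divided. Trp53inp1 and Gabarapl1 kept their call in all 6 fits without 1 library. Atg14 and Atg12 kept it in 1 fit each and Atg2b in 0, so the spread over steps rests partly on calls near the threshold. Among all tested genes, 2.63% were called higher, 1.67% were called lower and 4.3% were called in either direction. Before adjustment, 14 members had a p under 0.05 with a higher level in the knockout and 1 (Atg4a) with a lower one, where 12.4% and 10.2% of all genes did. By DESeq2 and limma-voom 0 members were called lower as well. The 3 knockout libraries lay above the 3 WT libraries for 16 members and below them for 1, against 15.1% and 13.9% of all genes. A log2 fold change above 0 was found for 33 of the 39, and for 48.9% of all genes. The members' median log2 fold change was 0.14, and that of all genes was -0.01.

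Promoter windows are shown for the called genes that RefSeq's promoter table (GRCm38.p6) holds and for Bnip3, the member with the highest level per length. Each window runs from 250 bases before to 50 bases after the start of the gene on its own strand, and the table held 31 of the 39 members. It has no entry for Trp53inp1, Atg12, Atg16l1, Becn1, Pik3c3, Map1lc3a, Bnip3l or Rb1cc1. Capitals mark matches to the motifs described below. The windows are Gabarapl1 at chr6:129532942-129533241 (plus strand), Atg14 at chr14:47568385-47568684 (minus strand), Atg2b at chr12:105685192-105685491 (minus strand) and Bnip3 at chr7:138909457-138909756 (minus strand). The RefSeq starts of Gabarapl1, Atg14 and Bnip3 lie inside the GENCODE genes. For Atg14 the whole window does: it reaches 47568684, while the gene, on the minus strand, begins at 47570649 in GENCODE.
Gabarapl1: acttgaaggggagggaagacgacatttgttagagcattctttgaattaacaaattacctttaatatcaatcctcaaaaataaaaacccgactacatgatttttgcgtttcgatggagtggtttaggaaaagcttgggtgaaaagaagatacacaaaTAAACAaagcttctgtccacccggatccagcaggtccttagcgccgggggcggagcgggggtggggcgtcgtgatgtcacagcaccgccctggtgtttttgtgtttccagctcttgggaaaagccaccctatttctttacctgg
Atg14: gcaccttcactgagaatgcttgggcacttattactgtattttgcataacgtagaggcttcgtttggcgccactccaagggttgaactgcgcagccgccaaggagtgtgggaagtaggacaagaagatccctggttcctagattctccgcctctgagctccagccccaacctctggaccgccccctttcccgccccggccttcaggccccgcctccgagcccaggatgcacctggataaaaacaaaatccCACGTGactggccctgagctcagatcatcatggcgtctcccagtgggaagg
Atg2b: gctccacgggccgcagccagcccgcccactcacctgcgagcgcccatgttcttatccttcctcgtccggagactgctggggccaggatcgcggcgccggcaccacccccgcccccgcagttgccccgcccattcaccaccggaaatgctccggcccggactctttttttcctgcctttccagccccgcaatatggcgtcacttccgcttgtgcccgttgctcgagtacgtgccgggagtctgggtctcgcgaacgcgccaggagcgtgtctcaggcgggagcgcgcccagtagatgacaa
Bnip3: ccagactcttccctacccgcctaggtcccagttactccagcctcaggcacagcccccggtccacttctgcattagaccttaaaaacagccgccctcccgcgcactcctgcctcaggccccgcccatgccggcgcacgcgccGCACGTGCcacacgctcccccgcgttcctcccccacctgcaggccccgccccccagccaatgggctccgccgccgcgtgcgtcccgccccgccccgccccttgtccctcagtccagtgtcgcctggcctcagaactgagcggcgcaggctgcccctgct

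These windows differed in base composition, with 46.3% G and C in Gabarapl1, 57.7% in Atg14, 67.3% in Atg2b and 71.7% in Bnip3, beside a median of 52.7% over all 32851 windows of the table. The median over all windows of the members was 59.3%. What part base composition has in the motif shares below was not tested. Motifs were searched on both strands. The 31 members had 37 windows, and a member counts once if any of its windows holds the motif. Shares of all windows below are per window. The members' shares are therefore not of the same unit, and a member with several windows has more room for a match. The E-box CACGTG, the core of the sites bound by TFEB and TFE3, was in the windows of 5 of the 31 members (Atg3, Atg5, Atg7, Atg14 and Bnip3), or 16.1%, and in 7.15% of all windows. In Atg14 it covers the RefSeq start, with its first base 1 base before that start. The longer form TCACGTGA, which contains the E-box, was in 1 member (Atg3, 3.23% of members) and in 0.974% of all windows.

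The other motifs were in the windows of 0 to 4 of the 31 members each. GCACGTG, which also contains the E-box and is a form of the hypoxia response element, was in 1 member, Bnip3, on both strands at the marked position 109 to 102 bases before the start, and in 2.68% of all windows. The FOXO motif TGTTTAC was in 0 of the 31 and in 3.65% of all windows. Its shorter core TGTTTA, added after the sequences were seen, was in 4 (Gabarapl1, Wipi2, Ambra1 and Atg4a, 12.9% of members) and in 13.4% of all windows. In Gabarapl1 this core lies on the minus strand, 94 to 89 bases before the start. The heat shock element was in 0 members and 0.603% of all windows, and the cyclic AMP response motif TGACGTCA was in 2 (Atg5 and Trp53inp2, 6.45%) and in 1.79% of all windows. The Atg2b window held none of the motifs searched. A match is a description of the letters and does not show binding.

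Levels per kilobase of transcript (CPM per kb, with the median length of a gene's protein-coding transcripts) spanned a wide range in WT, from 2.48 for Pik3r4 to 198 for Bnip3. Behind Bnip3 came Gabarap (172), Gabarapl1 (148), Map1lc3a (128), Trp53inp2 (115), Map1lc3b (108) and Sqstm1 (94.6), so the 7 highest were receptors, ATG8 proteins and 1 cofactor. The enzymes and scaffolds sat lower. Becn1 was at 41.1 CPM per kb and Ulk1 at 14.7, while Atg14, Atg2b and Pik3r4 held the 3 lowest places. In the knockout Gabarapl1 stood second (242 CPM per kb, behind Bnip3 at 278) and Trp53inp1 moved from place 35 of 39 in WT (4.05 CPM per kb) to place 18 (18.3 CPM per kb).

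**Figure D1:**
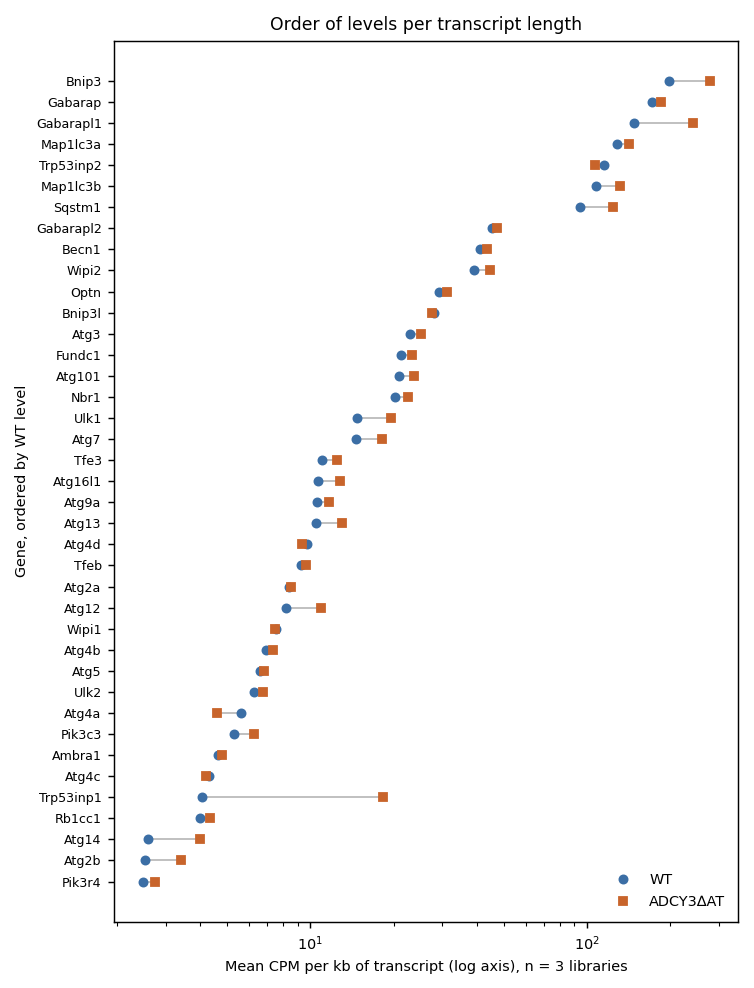
Mean level of each of the 39 genes in CPM per kb of transcript (log axis) in WT (circles) and ADCY3∆AT (squares), 3 libraries each, ordered by the WT level. Bnip3 (198 CPM per kb in WT) is at the top, followed by Gabarap and Gabarapl1, and on the log axis Trp53inp1 is the gene with the widest gap between the genotypes (4.05 and 18.3 CPM per kb).

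Transcriptional regulators and cofactors held the largest difference of the 39. Trp53inp1 encodes a stress-induced protein that binds LC3 and GABARAP proteins and works both in autophagy and with p53 (ENSMUSG00000028211, chromosome 4, 11156431 to 11174379, plus strand of GRCm38). It held 26.3, 21.4 and 18.0 CPM in WT and 134, 98.6 and 64.0 CPM in the knockout. The lowest knockout library was above the highest WT library, while the knockout libraries also differed more among themselves (a coefficient of variation of 35.5%) than those of any other member. The log2 fold change was 2.18 (95% interval 1.58 to 2.77, SE 0.26), and edgeR gave an adjusted p of 0.00589. Each of the 6 fits that left out 1 library kept the call, with log2 fold changes from 1.90 to 2.42. The exact permutation p was 0.1, two-sided, which is the smallest that 3 against 3 libraries can give.

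Its relative Trp53inp2, a cofactor of autophagosome formation that moves from the nucleus to the membrane, had a far higher level and no call. It held 474, 526 and 368 CPM in WT and 401, 444 and 432 CPM in the knockout, so the knockout libraries lay within the WT range. The log2 fold change was -0.10 (95% interval -0.38 to 0.18, edgeR adjusted p = 0.68). Tfeb and Tfe3, transcription factors that drive lysosomal and autophagy genes, were not called. Tfe3 held 35.1, 33.8 and 35.5 CPM in WT and 38.3, 41.2 and 39.1 CPM in the knockout, a small difference without overlap (log2 0.18, 95% interval 0.02 to 0.34, edgeR adjusted p = 0.172). Tfeb had 21.4 ± 0.941 CPM (SD, n = 3) in WT and 22.4 ± 0.915 CPM in the knockout (log2 0.06, 95% interval -0.12 to 0.25).

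Among the 5 ATG8 genes, whose products coat the forming membrane and hold the receptors, Gabarapl1 rose and the other 4 were not called. Gabarapl1 (ENSMUSG00000030161, chromosome 6, 129533160 to 129542346, plus strand) held 140, 126 and 133 CPM in WT and 236, 190 and 229 CPM in the knockout. All knockout libraries were well above all WT libraries. The log2 fold change was 0.71 (95% interval 0.50 to 0.93, SE 0.09). In edgeR the adjusted p was 0.00775, and leaving out any 1 library kept the call (log2 0.66 to 0.81). An antisense gene, 1700101I11Rik, shares exon sequence with it and held at most 0.332 CPM in any library. Map1lc3b, the most studied LC3 gene, held 172, 165 and 197 CPM in WT and 232, 206 and 218 CPM in the knockout. Its libraries did not overlap between the genotypes, but the difference missed the threshold (log2 0.30, 95% interval 0.10 to 0.49, edgeR adjusted p = 0.0914). Gabarap, the ATG8 gene with the highest level per length in WT, held 180, 172 and 189 CPM in WT and 194, 194 and 195 CPM in the knockout (log2 change 0.11, with an adjusted p of 0.364). Map1lc3a had a log2 fold change of 0.16 and Gabarapl2 of 0.06, and all 5 genes of the step were above 0.

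With each gene divided by its transcript length, Gabarapl1 made up 25.8%, 24.2% and 23.9% of the RNA of the 5 ATG8 genes in WT and 33.9%, 29.9% and 33.1% in the knockout. This share, computed after the single genes had been seen, did not overlap between genotypes. Gabarap took 28.6 ± 0.478% (SD, n = 3) in WT and 24.7 ± 1.26% in the knockout, so that Gabarapl1 had the largest share of the 5 in each knockout library and Gabarap in each WT library. These ranks depend on the median transcript lengths, and no other length was tried. Without division by length, Map1lc3b was above Gabarapl1 in knockout replicate 2 (206 and 190 CPM) and above Gabarap in WT replicate 3 (197 and 189 CPM). Map1lc3b took 17.9 ± 1.14% and 17.7 ± 0.492%.

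**Figure D2:**
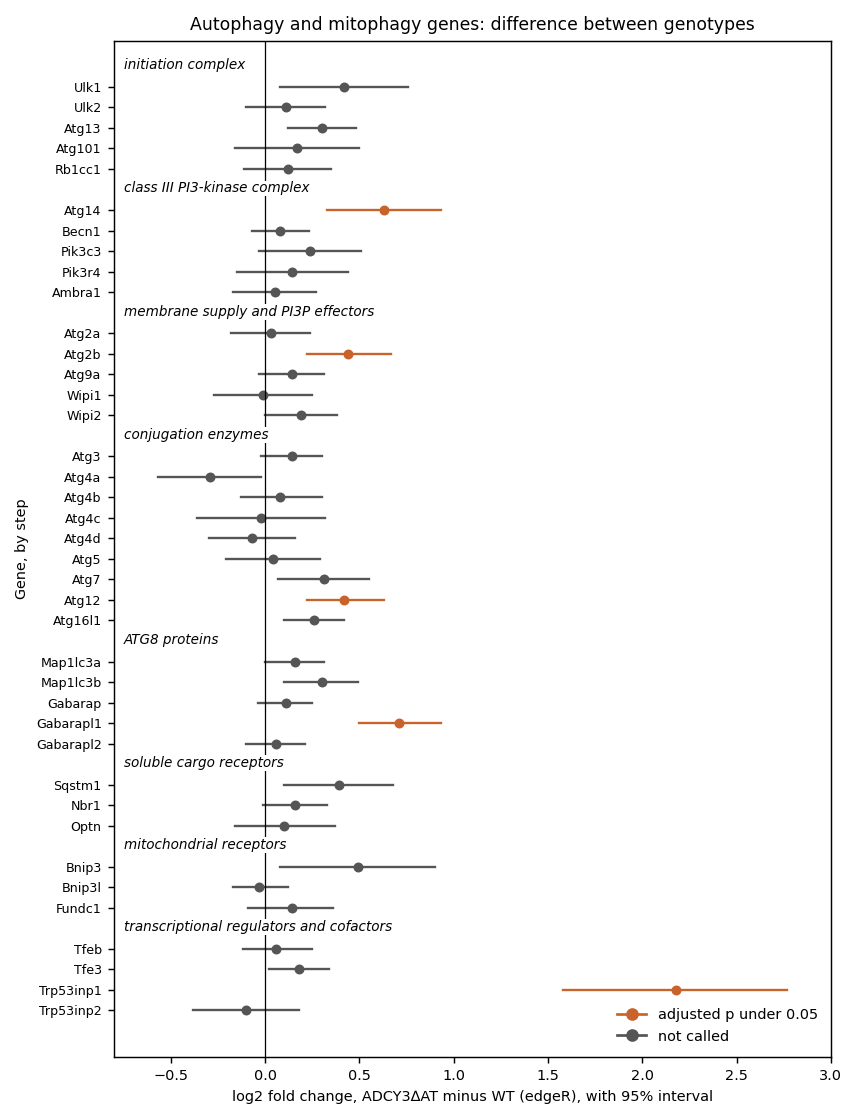
Log2 fold change (knockout minus WT, edgeR, 3 libraries per genotype) of each of the 39 genes with its 95% interval, grouped by step; the vertical line marks no difference and orange marks an adjusted p under 0.05. The 5 called genes, in 5 steps, are all to the right of the line, and Trp53inp1 (2.18) lies apart from the rest.

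In the lipid kinase complex, which makes the lipid mark of the forming membrane, Atg14 rose and 4 genes were not called. ATG14 directs the complex to the site where autophagosomes form. Atg14 (ENSMUSG00000037526, chromosome 14, 47540893 to 47570649, minus strand) was among the lowest of the 39, with 8.81, 11.1 and 7.95 CPM in WT and 14.2, 14.3 and 14.5 CPM in the knockout. The knockout libraries were nearly equal and all above WT. The log2 fold change was 0.63 (95% interval 0.33 to 0.93, SE 0.13). In edgeR the adjusted p was 0.0381, and among fits with 1 library left out, only that without WT replicate 2 kept the call (log2 0.53 to 0.78). Becn1, the scaffold shared by all forms of the complex, held 62.6, 59.6 and 61.7 CPM in WT and 62.1, 65.6 and 67.0 CPM in the knockout. These groups overlapped (log2 0.08, 95% interval -0.07 to 0.23, adjusted p = 0.502). The catalytic subunit Pik3c3 (log2 0.24), its partner Pik3r4 (0.14) and the regulator Ambra1 (0.05) had adjusted p-values from 0.268 to 0.794.

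Among the genes of membrane supply, Atg2b rose and the other 4 genes were not called. Atg2b and its relative Atg2a encode proteins that carry lipid from the endoplasmic reticulum to the growing membrane. Atg2b (ENSMUSG00000041341, chromosome 12, 105616136 to 105685211, minus strand) held 17.8, 20.9 and 18.3 CPM in WT and 27.5, 23.7 and 26.2 CPM in the knockout, without overlap. The log2 fold change was 0.44 (95% interval 0.22 to 0.67, SE 0.10), and edgeR gave an adjusted p of 0.0446; the call ended in each of the 6 fits without 1 library (log2 0.40 to 0.52) and with upper-quartile factors (adjusted p = 0.0518). An antisense neighbour, Gskip, shares exon sequence with Atg2b and held 8.55 to 11.9 CPM over the 6 libraries. Atg2a held 53.2 ± 5.20 CPM (SD, n = 3) in WT and 54.4 ± 3.54 CPM in the knockout (log2 0.03, 95% interval -0.18 to 0.24), a value whose sign turned without WT replicate 3, without knockout replicate 3 or under upper-quartile scaling. Wipi2, which reads the lipid mark and recruits the conjugation machinery, held 147, 141 and 130 CPM in WT and 166, 144 and 165 CPM in the knockout, with overlap (log2 change 0.19, with an adjusted p of 0.213). Atg9a, the membrane protein of the seed vesicles, had a log2 fold change of 0.14 and Wipi1 of -0.01, the latter of either sign across the alternatives.

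Of the 9 conjugation genes, Atg12 rose and 8 were not called. ATG12 is joined to ATG5, and the pair with ATG16L1 places LC3 on the membrane. Atg12 (ENSMUSG00000032905, chromosome 18, 46730144 to 46741580, minus strand) held 39, 41.2 and 36.2 CPM in WT and 47.2, 53.3 and 55.7 CPM in the knockout. The groups did not overlap, and the log2 fold change was 0.42 (95% interval 0.22 to 0.63, SE 0.09), and edgeR gave an adjusted p of 0.0388. Of the fits without 1 library only that without knockout replicate 1 kept the call (log2 0.37 to 0.50), and it ended with upper-quartile factors (adjusted p = 0.0509). Atg16l1 held 33.5, 34.4 and 31.5 CPM in WT and 39.7, 39.5 and 39.8 CPM in the knockout, without overlap but short of the threshold (log2 change 0.26, with an adjusted p of 0.0775). Atg5, the partner of Atg12, held 15.5 ± 1.36 CPM (SD, n = 3) in WT and 15.9 ± 1.56 CPM in the knockout (log2 0.04, of either sign across the alternatives).

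The enzymes that prepare and load the ATG8 proteins were less uniform. Atg7, the activating enzyme, held 34.7, 35.5 and 39.5 CPM in WT and 51.0, 39.4 and 45.8 CPM in the knockout (log2 change 0.31, with an adjusted p of 0.133). Its lowest knockout library was just under the highest WT library. Atg3, the enzyme that transfers them to lipid and the conjugation gene with the highest level per length, held 44.7, 48.7 and 47.7 CPM in WT and 52.1, 50.7 and 52.4 CPM in the knockout (log2 change 0.14, with an adjusted p of 0.271). The 4 ATG4 proteases trim the ATG8 proteins and release them again. Atg4a, on the X chromosome, held 13.2, 12.4 and 11.6 CPM in WT and 8.86, 11.1 and 10.4 CPM in the knockout, the 1 member whose knockout libraries all lay below WT (log2 -0.29, 95% interval -0.57 to -0.02, adjusted p = 0.191). Atg4b, Atg4c and Atg4d had log2 fold changes of 0.08, -0.02 and -0.07, and the signs of Atg4c and Atg4d turned in some of the alternatives.

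The initiation complex had 0 of 5 genes called, whether with edgeR, DESeq2 or limma-voom. Since edgeR called 4.3% of all tested genes, 0 of 5 says little about the step. Before adjustment 2 of the 5 had a p under 0.05 with a higher level, as did 12.4% of all genes. All 5 log2 fold changes were above 0, beside 48.9% of all genes. Ulk1, the kinase that starts autophagy, held 75.7, 65.6 and 52.4 CPM in WT and 101, 78.6 and 79.5 CPM in the knockout. The groups stood apart by a narrow margin, and the log2 fold change of 0.42 (95% interval 0.08 to 0.76) had an adjusted p of 0.14 in edgeR. Atg13, the adaptor that carries the kinase, held 40.4, 36.0 and 36.8 CPM in WT and 44.4, 45.6 and 49 CPM in the knockout (log2 change 0.30, with an edgeR adjusted p of 0.0747). Atg101, which stabilises ATG13 and was highest of the step per length, held 25.9, 29.0 and 25.1 CPM in WT and 37.3, 25.6 and 27.0 CPM in the knockout. Only knockout replicate 1 was above the WT range there, and the log2 fold change of 0.17 became -0.01 without that library. Ulk2 (log2 0.11) and the scaffold Rb1cc1 (0.12) overlapped between genotypes.

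The soluble receptors bring ubiquitin-tagged cargo to the membrane, and none of the 3 was called by edgeR or limma-voom. With 4.3% of all tested genes called by edgeR, this says little about the step. Sqstm1, itself a substrate of autophagy, held 175, 184 and 219 CPM in WT and 299, 235 and 226 CPM in the knockout. The margin between the groups was small (log2 0.39, 95% interval 0.10 to 0.68, edgeR adjusted p = 0.118), and DESeq2 called it (adjusted p = 0.0438). It was the 1 gene of the 3 with an unadjusted p under 0.05. Nbr1, a relative of Sqstm1, had a log2 fold change of 0.16 and no overlap (80.8 to 91.6 CPM in WT and 93.3 to 100 CPM in the knockout). Optn had a log2 fold change of 0.10, with overlap.

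Of the receptors that sit on mitochondria, Bnip3 varied most between knockout libraries, and none of the 3 was called by edgeR or limma-voom. Here too the absence of calls says little, as edgeR called 4.3% of all tested genes. Bnip3 held 244, 232 and 260 CPM in WT and 455, 257 and 322 CPM in the knockout, so knockout replicate 2 lay within the WT range. The log2 fold change was 0.49 (95% interval 0.08 to 0.90, edgeR adjusted p = 0.155), with values from 0.25 to 0.66 in fits without 1 library, and DESeq2 called it (adjusted p = 0.0471). It was the 1 receptor with an unadjusted p under 0.05. Bnip3l, its close relative that clears mitochondria in maturing red cells, was at 90.9 ± 2.08 CPM (SD, n = 3) in WT and 89.2 ± 3.15 CPM in the knockout (log2 -0.03, 95% interval -0.17 to 0.12). Fundc1, a receptor of the outer membrane encoded on the X chromosome, overlapped between genotypes (log2 change 0.14, with an adjusted p of 0.452).

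**Figure D3:**
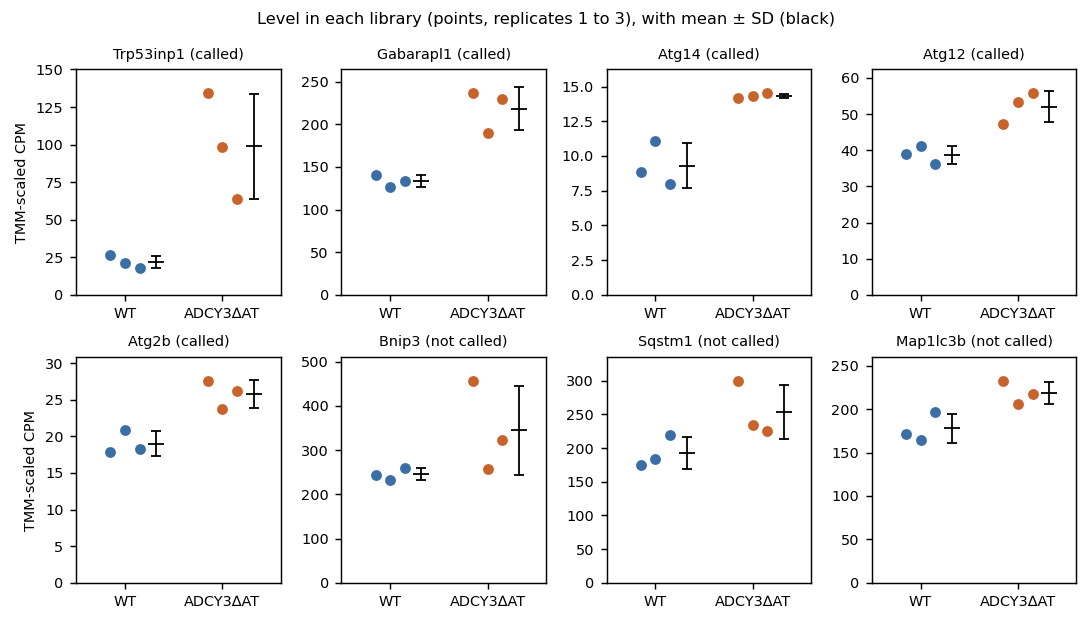
TMM-scaled CPM of the 5 called genes and of Bnip3, Sqstm1 and Map1lc3b in each library (points, left to right replicates 1 to 3), with mean ± SD in black; axes start at 0. The knockout points of the called genes all lie above the WT points, while for Bnip3 knockout replicate 2 (257 CPM) lies under the highest WT library (260 CPM).

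Ratios between related genes within 1 library do not depend on the scaling between libraries, and 8 such pairs were compared. Trp53inp1 to Trp53inp2 had a log2 ratio of -4.15, -4.59 and -4.31 in WT and of -1.57, -2.17 and -2.74 in the knockout. For Gabarapl1 to Gabarapl2 the log2 ratios were 0.86, 0.80 and 0.76 in WT and 1.55, 1.23 and 1.59 in the knockout. The ratios of these pairs did not overlap between genotypes, nor did those of Bnip3 to Bnip3l (1.38 to 1.51 in WT, 1.58 to 2.33 in the knockout) and of Atg2a to Atg2b (1.3 to 1.69 in WT, 0.95 to 1.14 in the knockout). Each of these 4 had an exact permutation p of 0.1, two-sided, the smallest this design allows, and 0.2 after adjustment over the 8 pairs, so no pair could pass 0.05. The pairs Ulk1 to Ulk2, Wipi1 to Wipi2, Map1lc3a to Map1lc3b and Tfeb to Tfe3 overlapped, with adjusted exact p-values of 0.32 to 0.4.

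**Figure D4:**
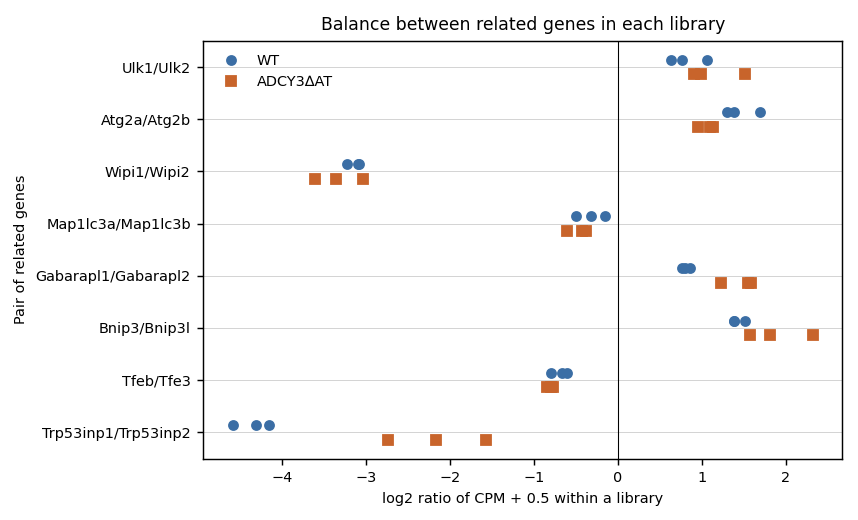
Log2 ratio of CPM + 0.5 of 8 pairs of related genes in each library, WT as circles and ADCY3∆AT as squares, 3 of each. The genotypes are apart for Trp53inp1/Trp53inp2, Gabarapl1/Gabarapl2, Bnip3/Bnip3l and Atg2a/Atg2b and overlap for the other 4 pairs.

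Seen by step, the median log2 fold change lay between 0.08 (conjugation enzymes) and 0.17 (initiation complex). It was 0.16 for the ATG8 genes and for the soluble receptors, 0.14 for the lipid kinase complex, for membrane supply and for the mitochondrial receptors, and 0.12 for the regulators. The summed level of the 39 genes was 2850, 2880 and 2740 CPM in WT and 3540, 3150 and 3280 CPM in the knockout. Within a genotype the members had a median coefficient of variation of 6.67% in WT and 6.50% in the knockout. Single members varied more, up to 19.6% in WT (Atg4c), and to 29.2% (Bnip3) and 35.5% (Trp53inp1) in the knockout. The skeletal muscle RNA given above was highest in WT replicate 3, where Ulk1, Atg14, Trp53inp1 and Trp53inp2, among others, had their lowest WT value but Map1lc3b and Sqstm1 their highest. Without that library the log2 fold change was 2.05 for Trp53inp1 (edgeR adjusted p = 0.0285), 0.71 for Gabarapl1 (0.0311) and 0.53 for Atg14 (0.0908).

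**Figure D5:**
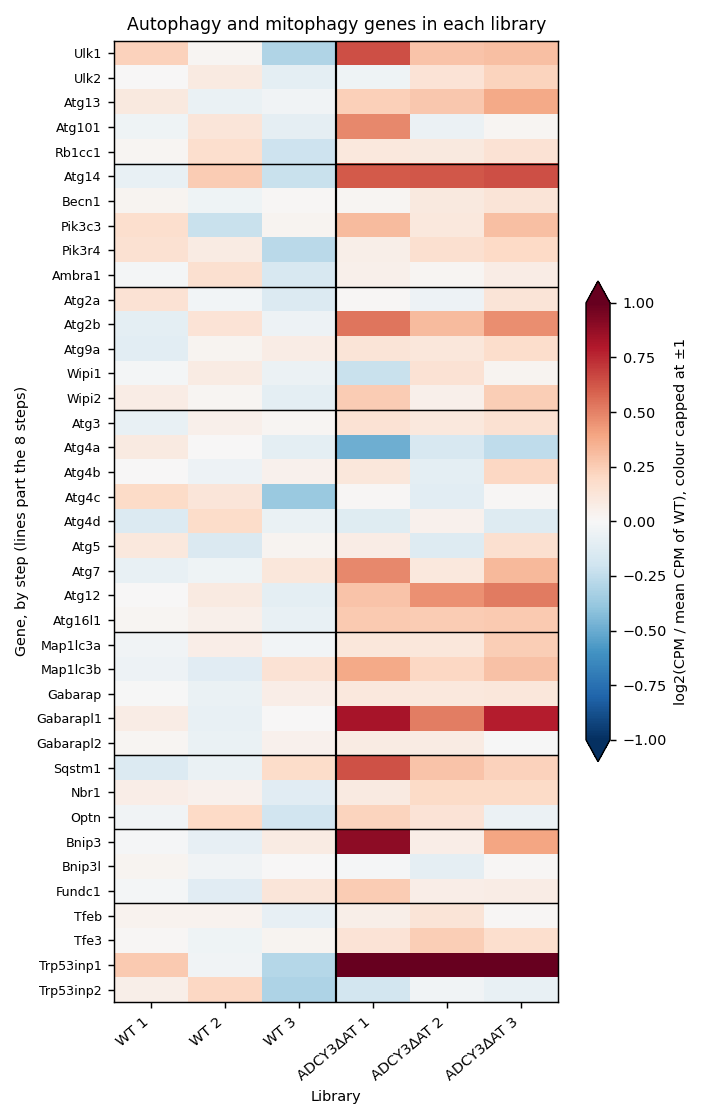
Level of each of the 39 genes in each of the 6 libraries as log2 of CPM over the mean CPM of WT (colour, capped at ±1), with lines between the 8 steps. Red prevails in the 3 knockout columns (33 of 39 genes have a log2 fold change above 0), most in Trp53inp1, Gabarapl1 and Atg14, and Atg4a is blue in all 3.

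Other genes of the route were taken from lists chosen with earlier results of these data known. Beside the counts below, 2.63% of all tested genes were called higher by edgeR and 1.67% lower. An unadjusted p under 0.05 was found with a higher level for 12.4% of all genes and with a lower one for 10.2%. Of 24 further autophagy genes 1 rose (4.17%), 0 fell and 23 were not called, with a median log2 fold change of 0.10. The gene that rose was Zfyve1, whose product marks the site where autophagosomes form. It held 18.1, 20.6 and 17.3 CPM in WT and 29.0, 24.7 and 25.6 CPM in the knockout (log2 change 0.51, with an edgeR adjusted p of 0.0347), and among fits with 1 library left out, only that without WT replicate 2 kept the call. Among 34 lysosomal genes edgeR and limma-voom called 0 and DESeq2 called 2 (higher), while 12 had an unadjusted p under 0.05 with a higher level and 0 with a lower one (median log2 0.08). Those with the smallest p were Gaa, the acid glucosidase (log2 change 0.27, with an edgeR adjusted p of 0.0589), and the cathepsin Ctsz (0.49, adjusted p = 0.0619). Among 21 genes of the PINK1 and Parkin route and of mitochondrial quality edgeR and limma-voom called 0 and DESeq2 called 1 (lower), with a median of 0, and 3 had an unadjusted p under 0.05 with a higher and 1 with a lower level. The last was Tomm20, an import receptor of the outer mitochondrial membrane (log2 change -0.27, with an adjusted p of 0.0647), and Tbk1, a kinase of cargo receptors, was at 0.32 on the log2 scale (adjusted p of 0.112).

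The list of genes that control autophagy through the kinases TORC1 and AMPK or through FOXO factors had 31 tested genes. Of these 7 rose (22.6%, against 2.63% of all genes), 1 fell and 23 had no call, with a median log2 fold change of 0.21. As the list was chosen with earlier results of these data known, the 2 shares are a description and not a test. DESeq2 called 9 higher and 1 lower, and limma-voom 6 and 1. Prkab1, a regulatory subunit of AMPK, fell from 66.5, 59.8 and 65.8 CPM in WT to 33.5, 39.9 and 31.4 CPM in the knockout (lower by 1.83-fold, with an edgeR adjusted p of 0.00539). Leaving out any 1 library kept that call. Foxo3, a transcription factor of fasting and stress, rose from 11.3, 13.7 and 10 CPM in WT to 24.9, 18.5 and 21.6 CPM in the knockout (1.87-fold, edgeR adjusted p = 0.0171), a call that ended without WT replicate 1 or 3. Tsc1, which restrains TORC1, rose 1.45-fold (log2 0.54, SE 0.08, edgeR adjusted p = 0.0144), a call that ended without WT replicate 1 or knockout replicate 2. Depp1, a FOXO target linked to autophagy, held 12.5, 18.2 and 18.0 CPM in WT and 105, 43.8 and 43.1 CPM in the knockout (3.95-fold, edgeR adjusted p = 0.0249), and its call ended without any 1 WT library.

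Bnip3 is a textbook target of hypoxia-inducible factors. Whether these factors have a part in its level here was not tested. A list of other hypoxia-inducible genes is described beside it. Among 17 tested genes 2 rose (11.8%, against 2.63% of all genes) and 1 fell while 14 had no call, with a median log2 fold change of 0.02. This list was also chosen with earlier results known, so these shares are no test of it. DESeq2 called 4 higher and 2 lower, and limma-voom 2 and 2. The log2 fold change was above 0 for 9 genes and below 0 for 8, while 48.9% of all tested genes were above 0. The collagen prolyl hydroxylases P4ha1 (13.3-fold, edgeR adjusted p = 0.00049) and P4ha2 (4.08-fold, adjusted p = 0.00155) rose, and both calls were kept in all 6 fits without 1 library. Pfkfb4, an enzyme that sets the rate of glycolysis, fell (1.87-fold lower, adjusted p = 0.0336), a call that ended in each of those fits. Of the genes with no call, Bhlhe40 was lower (log2 change -1.19, with an edgeR adjusted p of 0.055). Kdm3a (log2 0.77, adjusted p = 0.059) and Egln1 (log2 0.43, adjusted p = 0.0687) were higher. Vegfa, the growth factor of blood vessels, was at 0.16 on the log2 scale (adjusted p of 0.383). These uncalled genes were picked after their values were seen.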

How the data were processed

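Polyadenylated RNA of 6 brown fat libraries was sequenced as paired ends with a NEBNext Ultra II kit, per the labels' protocols. The deposited table holds estimated counts, 1 row per gene and 1 column per library. The submitters' processing notes name GRCm38, StringTie, Salmon and edgeR, without versions or roles; how strand was handled is not stated there, and overlapping antisense genes cannot be separated (11 of the 39 members share exon sequence with another gene). Columns were matched through the number in each sample's description, and 54131 rows took a symbol from GENCODE M21. Between libraries of 1 genotype the chi-square per gene was 6.34 to 26.6, above counting noise, and each library was taken as 1 replicate. No label ties the libraries to separate mice, so p-values measure the spread between these libraries, which may be partly technical.

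Counts were rounded and filtered with filterByExpr (minimum count 10, minimum total 15), scaled by TMM and tested by edgeR (version 4.0.16, R 4.3.3) with its quasi-likelihood method on genotype alone over the 6 libraries; the code was tested on simulated data. SE and intervals come from the F statistic and its moderated degrees of freedom. Exact permutation tests used the 20 assignments of log2(CPM + 0.5). Alternatives were scaling by upper quartile, by DESeq2 size factors or by library size alone, DESeq2 1.42.0, limma-voom (limma 3.58.1), no filter, CPM above 1 in 3 libraries, the replicate number as a block, a threshold of 0.10 and leaving out each library. Values per library are given for called members, those with an unadjusted p under 0.05 and the highest per length of each step. Library totals ran from 13758492 to 19592156 estimated counts. Of each related list, up to 4 called genes with the smallest p are named, or else the 2 with the smallest p. The members and lists were chosen with earlier results of these data known.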

Additional observations from a re-analysis of the deposited data

How the results depend on the processing

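The 5 calls among the 39 genes were 5 with the size factors of DESeq2, with library size alone, with limma-voom and with the CPM filter, and the same 5 genes each time. They were 7 with the test of DESeq2 (Sqstm1 and Bnip3 added), 8 at a threshold of 0.10 (Atg13, Atg16l1 and Map1lc3b added), 11 with no filter on low counts, 3 with upper-quartile factors (Atg14, Gabarapl1 and Trp53inp1), 2 with the replicate number as a block (Gabarapl1 and Trp53inp1) and 2 to 3 without 1 library. No member was called lower in any of these. Steps with a call went from 5 to 3 with upper-quartile factors, 8 with no filter, 2 with the block and 2 to 3 without 1 library. Calls over all genes, 377 higher and 239 lower, became 598 and 395 with DESeq2, 1204 and 747 with no filter, 193 and 131 with the block, and 810 and 565 at 0.10; with upper-quartile factors they were 282 and 274. They ran from 84 to 301 higher and 78 to 160 lower without 1 library. Calls among the related lists, 10 higher and 2 lower, became 16 and 4 with DESeq2, 24 and 4 with no filter, 5 and 1 with the block, 16 and 5 at 0.10, and ran from 3 to 7 higher and 1 to 2 lower without 1 library. Fits without 1 library have fewer libraries, and for the other changes the cause was not tested. The members' median log2 fold change was 0.10 with upper-quartile factors, where that of all genes was -0.05, and 0.13 to 0.17 without 1 library. The replicate numbers were not taken as pairs: deviations of same-numbered libraries correlated at -0.01, 0.01 and -0.05, and 0 libraries correlated best with their own number.

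Among the 39 genes the sign turned only for genes that were not called, all within 0.10 of 0 except Atg101 (0.17, and -0.01 without knockout replicate 1). With upper-quartile factors Atg2a and Atg5 were at 0 (both just below). Atg4c was 0.01 with limma-voom and 0 with no filter, and Wipi1 was 0.01 with no filter. In fits that left out 1 library, values went from -0.03 to 0.11 for Atg2a, -0.18 to 0.08 for Atg4c, -0.13 to 0.04 for Atg4d, -0.03 to 0.12 for Atg5, -0.01 to 0.27 for Atg101, -0.09 to 0.10 for Wipi1, -0.04 to 0 for Bnip3l, -0.02 to 0.14 for Ambra1 and -0.23 to 0.02 for Trp53inp2.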

Other observations

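Knockout replicate 1 stood above the other knockout libraries for several genes of the route. It held 455 CPM of Bnip3 (257 and 322 in replicates 2 and 3), 299 CPM of Sqstm1 (235 and 226) and 134 CPM of Trp53inp1 (98.6 and 64.0). Ddit4, an inhibitor of TORC1 that was called higher and is named here for its spread, held 29.3, 21.4 and 24.1 CPM in WT and 253, 55.2 and 72.6 CPM in the knockout. Its edgeR adjusted p was 0.0479, and the call was lost without WT replicate 1, 2 or 3 or knockout replicate 3. Depp1 held 105 CPM in knockout replicate 1 against 43.8 and 43.1. This was not shared by all members: 14 of the 39 had their highest knockout value in replicate 1, 8 in replicate 2 and 17 in replicate 3. Without that library the log2 fold change was 0.25 for Bnip3 and 1.90 for Trp53inp1, and the call of Trp53inp1 was kept.

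The remaining called genes of the TORC1, AMPK and FOXO list were Fnip1 and Fnip2, partners of folliculin, and Foxo4. They had log2 fold changes of 0.59, 0.74 and 0.35 and edgeR adjusted p-values from 0.0296 to 0.0473. Of the 6 fits without 1 library, 1 kept the call of Fnip1, 1 that of Fnip2 and 0 that of Foxo4.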
